A study of Bos taurus with 13 samples.

Results

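Macrophage and myeloid genes were followed in whole testis of 13 newborn bull calves, 1 array per calf. The genes were a list of 33 markers, and 32 of them were found, each through 1 probe set (a group of array probes read as 1 value) whose only annotated symbol was that gene. The whole table covered 18087 genes through 26773 probe sets. No probe set carried the mannose receptor gene MRC1 as its only symbol, so MRC1 was not analysed here. Values are on a log2 scale, on which a difference of 1 is a doubling, and levels of different probe sets were not compared with each other.

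The dams were Angus cross cows that ate 1 common vitamin and mineral mix at will, starting 4 months before they were bred and lasting through pregnancy. It held 35 ppm of selenium in every group. In the Mix group (4 calves) 50% of the selenium came from each source, in the OSe group (4 calves) it was the organic product Sel-Plex, and in the ISe group (5 calves) it was inorganic sodium selenite. No group went without supplement, so the comparisons are between forms of selenium. The labels describe 24 cows, 8 per diet, and collection of the testis within 2 days of birth. Every array came from a different calf, and the labels give no sort or enrichment of cells.

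Macrophages are resident immune cells of the testis, where they lie beside Leydig cells in the interstitium and around the seminiferous tubules. They depend on signals through CSF1R, the receptor for CSF1 and IL34, and their identity is set by the transcription factor SPI1 (PU.1). They clear dying cells through scavenger receptors, make the complement component C1q, digest what they take up with lysosomal enzymes, and sense microbes with Toll-like receptors. Many of these genes are shared with monocytes, dendritic cells and neutrophils, and some (PTPRC, ITGB2, LAPTM5) with all leukocytes.

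The defining markers were measured above the low end of the table. Of the 32 genes, 29 had a mean over the 25th percentile of all probe set means (6.26), and MARCO, TLR2 and CCR2 lay below it. The array medians ran from 7.61 to 7.65 in 12 calves, and OSe animal 2 stood at 7.74. Over the 13 calves the genes varied with a median SD of 0.28, beside 0.17 for all probe sets.

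Calves differed from each other in many of these genes at once. The mean deviation of the 32 genes from their own averages was 0.11, -0.15, 0.19 and -0.10 in Mix animals 1 to 4, 0.20, 0.15, 0.23 and -0.36 in OSe animals 1 to 4, and -0.29, 0.11, 0.05, 0.08 and -0.22 in ISe animals 1 to 5. The lowest calves were OSe animal 4, ISe animal 1 and ISe animal 5, and the 3 groups overlapped. OSe animal 4 had the lowest value of all calves in 12 of the 32 genes, ISe animal 1 in 8 and ISe animal 5 in 5. Mix animal 3 had the highest value in 7 genes and OSe animal 3 in 5. In whole tissue, fewer macrophages and less RNA of these genes per cell cannot be told apart.

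**Figure D1:**
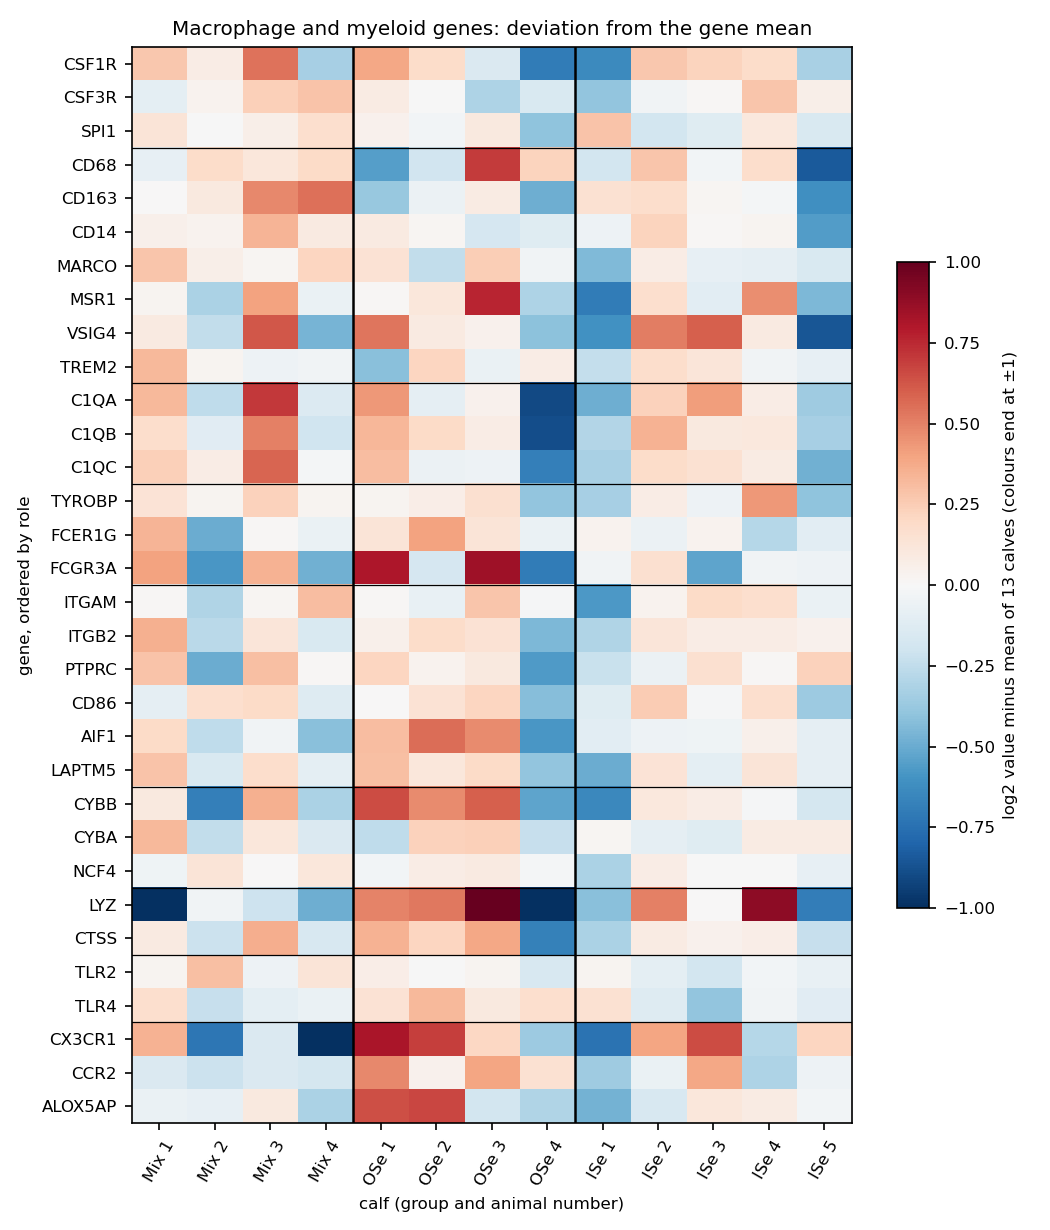
Heat map of 32 macrophage and myeloid genes (rows, grouped by role) in 13 calves (columns, Mix, OSe and ISe), coloured by the log2 value minus the gene's mean over the calves, with colours ending at ±1. OSe animal 4 and ISe animal 1 are blue over most of the rows, with mean deviations of -0.36 and -0.29. Exceptions, above their gene means, include CD68 and TLR4 in OSe animal 4, and CD163, SPI1, TLR2 and TLR4 in ISe animal 1.

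Taken pair by pair over the 13 calves, the 32 genes had a median Pearson correlation of 0.33 (496 pairs), beside 0.04 for all pairs of probe sets. Correlations above 0.5 made up 30.4% of the pairs of members and 7.63% of all pairs, and 83 pairs of members were below 0. All points share the same 13 arrays. The median of the members was 0.22 without OSe animal 4 and ISe animal 1.

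CSF1R, the growth factor receptor that macrophages need to survive, was used as the yardstick. Its log2 values were 9.13, 8.94, 9.40 and 8.53 in Mix, 9.25, 9.04, 8.71 and 8.16 in OSe, and 8.22, 9.13, 9.08, 9.04 and 8.54 in ISe. The highest value was that of Mix animal 3, the lowest were those of OSe animal 4 and ISe animal 1, and each group held both high and low calves. Each other probe set was fitted on CSF1R in limma with a mean per group, which asks whether it followed CSF1R among calves of 1 group. The slope is the change in log2 value per unit of log2 CSF1R, and p-values were adjusted by the Benjamini-Hochberg method over 26772 probe sets.

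No member passed an adjusted p of 0.05 in this test, where the background was 0% of probe sets with a positive and 0% with a negative slope. At an unadjusted p under 0.05, 15 of 31 members had a positive slope and 0 a negative one, where all probe sets gave 4.10% positive and 4.07% negative. Without moderation of the variances 0 probe sets passed the adjustment as well. The median correlation with CSF1R within groups was 0.57 over the members and 0.01 over all probe sets.

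The 3 chains of C1q, the molecule that starts the classical complement pathway and tags debris for uptake, lay closest to CSF1R among the members. C1QB had log2 values of 12.21, 11.91, 12.54 and 11.83 in Mix, 12.36, 12.22, 12.10 and 11.14 in OSe, and 11.74, 12.37, 12.12, 12.13 and 11.70 in ISe. Mix animal 3 was again the highest and OSe animal 4 the lowest, with overlap of all groups. The limma slope on CSF1R was 0.87 ± 0.12 (SE) for C1QB, 1.01 ± 0.15 for C1QA and 0.73 ± 0.11 for C1QC. Their adjusted p were 0.0746, 0.0777 and 0.0746, the lowest among the members.

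The C1q calls turned on the choice of model and on which probe sets were tested. All 3 chains passed in limma without group means in the model (adjusted p 0.0252 each), among probe sets above the 25th percentile (0.048 for C1QB and C1QC, 0.0484 for C1QA) and among probe sets with exactly 1 symbol (0.0307 each). They passed under none of the other alternatives run on this slope. Over the 13 calves C1QB correlated with CSF1R at r = 0.917 (Spearman's rho 0.929), C1QC at 0.912 (rho 0.912) and C1QA at 0.907 (rho 0.934). The two-sided permutation p were 1e-05 for C1QA and C1QB, the smallest that 100000 resamples can give, and 2e-05 for C1QC. Without the 2 calves farthest from the CSF1R median, OSe animal 4 and ISe animal 1, r was 0.905 for C1QB (permutation p 0.00034), 0.860 for C1QC (0.00018) and 0.822 for C1QA (0.0017).

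The C1q chains also tracked each other, with r of 0.940 between C1QA and C1QC, 0.929 between C1QA and C1QB and 0.920 between C1QB and C1QC. In the RefSeq gene table (assembly ARS-UCD2.0) the genes lie together, with 0 protein-coding genes between C1QA and C1QC and 1 between C1QC and C1QB. C1QA averaged 9.47 ± 0.44 in Mix (SD, n = 4), 9.17 ± 0.56 in OSe (n = 4) and 9.28 ± 0.39 in ISe (n = 5). C1QC averaged 9.70 ± 0.27 in Mix, 9.36 ± 0.41 in OSe and 9.40 ± 0.30 in ISe.

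**Figure D2:**
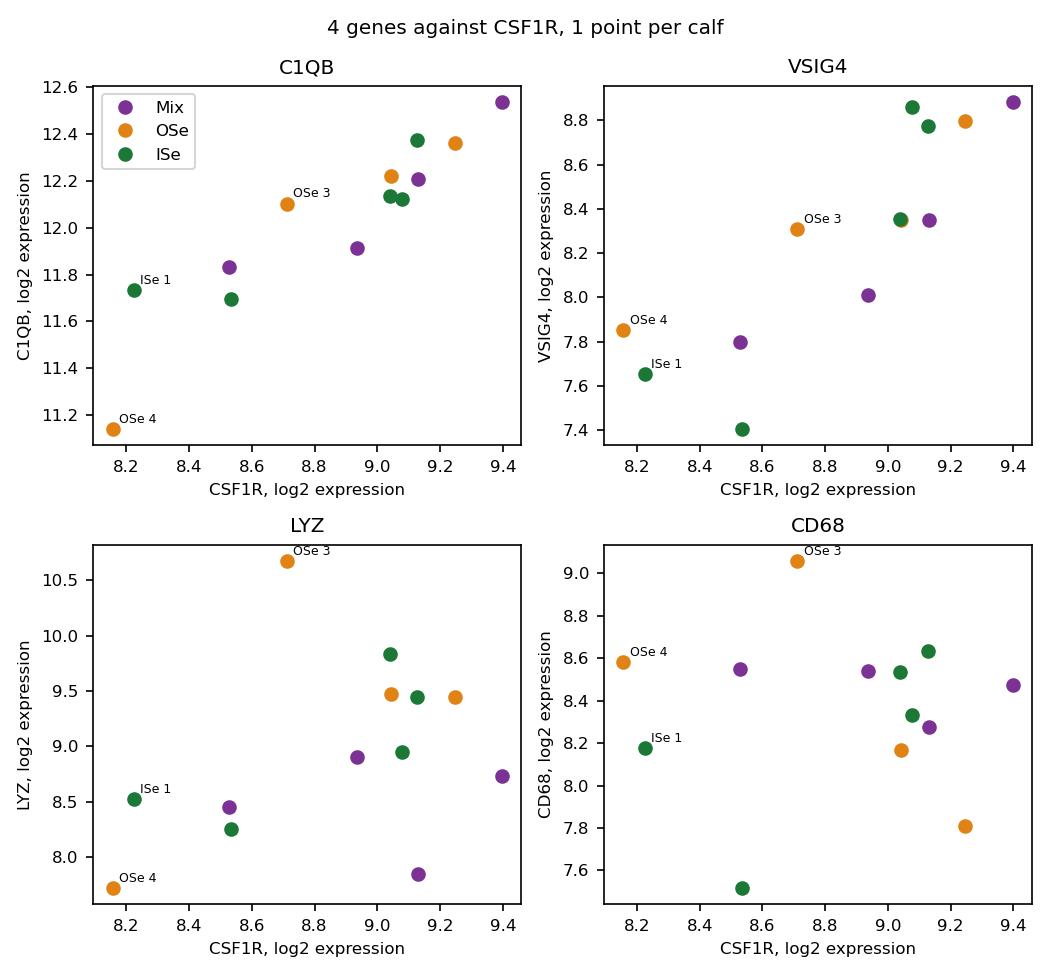
Log2 value of C1QB, VSIG4, LYZ and CD68 (vertical axes) against CSF1R (horizontal axes), 1 point per calf, coloured by Mix, OSe and ISe. C1QB and VSIG4 climb with CSF1R (r = 0.917 and 0.848 over 13 calves), while LYZ (0.368) and CD68 (-0.02) are scattered, with OSe animal 3 highest in both. Within groups, r was 0.529 for LYZ and -0.06 for CD68.

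Among the scavenger receptors, VSIG4 was the closest to CSF1R. VSIG4 is the complement receptor CRIg, which resident macrophages use to capture particles coated with C3 fragments. Its slope was 1.13 ± 0.18 (SE, limma adjusted p 0.136), and its r over the 13 calves was 0.848 (permutation p 0.00027), with 0.869 (p 0.00056) without OSe animal 4 and ISe animal 1. CD14, the co-receptor for lipopolysaccharide, had an r of 0.603 (permutation p 0.024), and 0.724 (p 0.0078) without those calves. MSR1, a receptor for modified lipoproteins, had an r of 0.564, and 0.274 without them.

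Across the 31 relations with CSF1R, 16 had an r above 0.5 and 15 a permutation p under 0.05, not adjusted. Shares of all probe sets at these cut-offs are not given here, so the counts have no background beside them. Only C1QA, C1QB, C1QC, VSIG4 and CD14 kept a p under 0.05 among the 11 calves that remained without OSe animal 4 and ISe animal 1. Among the other 10, r without those calves was up to 0.590 (CTSS), with fewer calves and a narrower range of CSF1R.

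Lysosomal and oxidase genes were among those 10. CTSS encodes cathepsin S, a lysosomal protease that trims the invariant chain for antigen presentation, and CYBB the catalytic subunit of the phagocyte NADPH oxidase. CTSS was 11.74, 11.44, 12.02 and 11.50 in Mix, 12.01, 11.87, 12.05 and 10.98 in OSe, and 11.34, 11.74, 11.70, 11.73 and 11.43 in ISe. CYBB was 9.30, 8.52, 9.55 and 8.88 in Mix, 9.85, 9.67, 9.79 and 8.67 in OSe, and 8.55, 9.31, 9.27, 9.19 and 9.02 in ISe. In both genes OSe animal 4 lay far below the other OSe calves, and the groups overlapped. CTSS had the highest correlation with the mean of the other members (0.97), followed by LAPTM5 (0.90), C1QB (0.89) and CYBB (0.89).

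The slopes on CSF1R were 0.67 ± 0.14 (SE) for CTSS and 0.88 ± 0.18 for CYBB, both with a limma adjusted p of 0.253. That of CTSS was 0.44 without OSe animal 4. LAPTM5, a lysosomal membrane protein of leukocytes, had a slope of 0.53 ± 0.11 (adjusted p 0.256). ALOX5AP, which presents arachidonic acid to 5-lipoxygenase for leukotriene synthesis, had 0.65 ± 0.15, and the fractalkine receptor CX3CR1 1.11 ± 0.24 (limma adjusted p 0.306 for both). Without OSe animal 4 and ISe animal 1, r with CSF1R was 0.590 for CTSS, 0.428 for CYBB, 0.579 for LAPTM5, 0.50 for ALOX5AP and 0.432 for CX3CR1.

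The subunits of the oxidase were not closely correlated. CYBB correlated at 0.898 with CTSS, but at 0.416 with CYBA, its membrane partner, and at 0.297 with NCF4, a cytosolic subunit. CYBA and NCF4 varied little, with an SD over the 13 calves of 0.20 and 0.12, beside 0.45 for CYBB and a median of 0.17 for all probe sets. Whether this small spread lowered r was not tested. TYROBP (DAP12), the adaptor that signals for TREM2 and other receptors, correlated with TREM2 at 0.177 and with FCER1G, the other adaptor of this kind, at 0.02.

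TYROBP was 8.0, 7.88, 8.09 and 7.88 in Mix, 7.88, 7.92, 8.02 and 7.47 in OSe, and 7.52, 7.93, 7.80, 8.29 and 7.46 in ISe. Its 3 lowest calves were ISe animal 5, OSe animal 4 and ISe animal 1, and the groups overlapped. Its slope on CSF1R was 0.45 ± 0.14 (SE, limma adjusted p 0.472), with r = 0.740 over 13 calves and 0.496 (permutation p 0.12) without OSe animal 4 and ISe animal 1.

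Surface proteins of leukocytes in general lay between. ITGB2, the shared beta chain of the leukocyte integrins, and PTPRC (CD45), the phosphatase on all nucleated blood cells, correlated with each other at 0.845. Their r with CSF1R were 0.729 and 0.578, and 0.390 and 0.194 without OSe animal 4 and ISe animal 1. ITGAM, the alpha chain that pairs with ITGB2 in complement receptor 3, correlated with ITGB2 at 0.426. CD86, a costimulatory ligand for T cells, had an r of 0.702 with CSF1R, and 0.533 without those calves.

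Several canonical macrophage genes left the shared profile. The lowest correlations with the mean of the other members were those of TLR2 (-0.02), TLR4 (0.01) and TREM2 (0.06), followed by CD68 (0.15), the granulocyte colony-stimulating factor receptor CSF3R (0.22), SPI1 (0.24) and CD163 (0.26). In all, 18 of the 32 genes had a correlation above 0.5 with the others. The share of all probe sets above 0.5 with the same mean is not given here, so this count has no background.

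**Figure D3:**
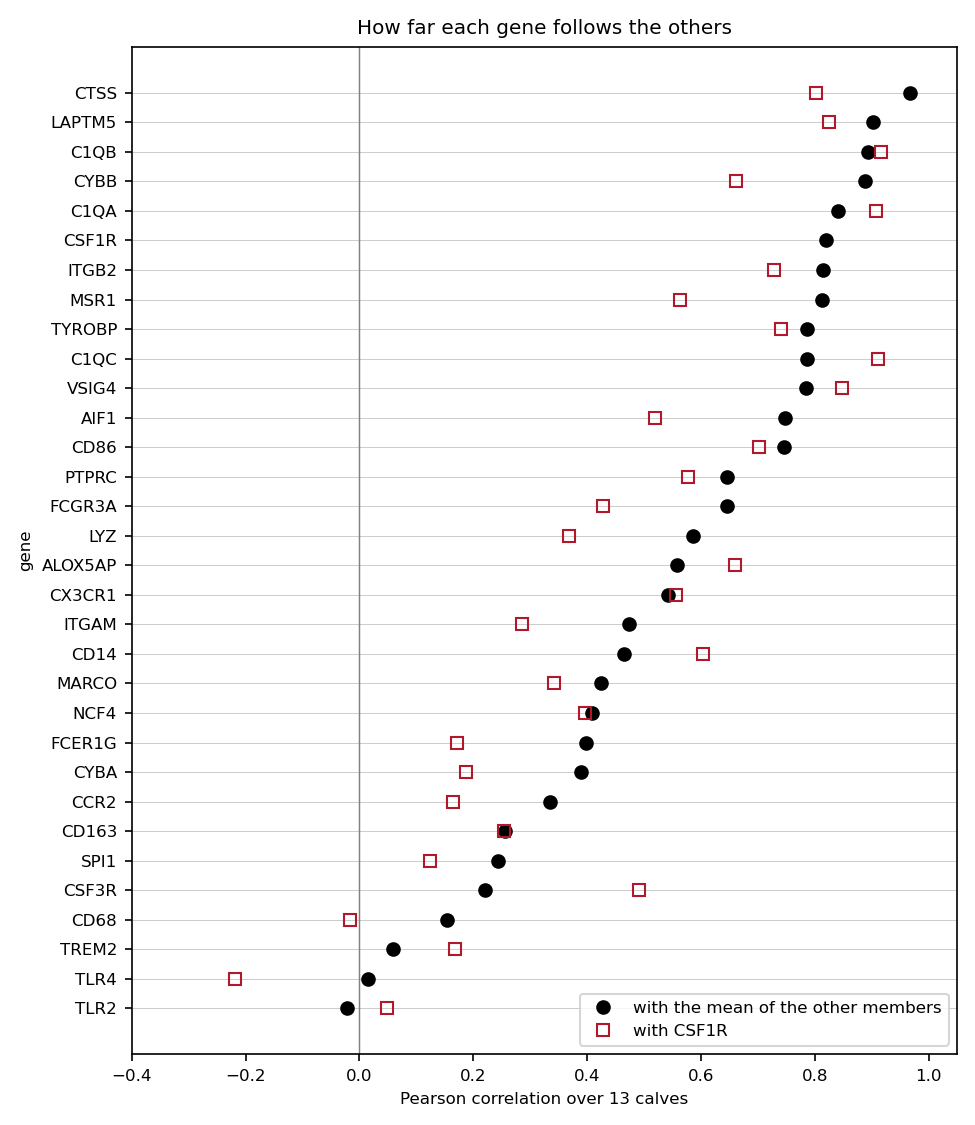
Pearson correlation over 13 calves of each gene with the mean of the other members (filled circles) and with CSF1R (open squares), genes ordered from high to low. CTSS, at 0.97, stands at the top, and TREM2, TLR4 and TLR2 lie between 0.06 and -0.02 at the bottom.

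CD68, a lysosomal glycoprotein used as a general macrophage marker, was 8.28, 8.54, 8.47 and 8.55 in Mix, 7.81, 8.17, 9.06 and 8.58 in OSe, and 8.18, 8.63, 8.33, 8.54 and 7.52 in ISe. OSe animal 3 was the highest and ISe animal 5 the lowest, and OSe animal 4, lowest in CSF1R, was among the 3 highest in CD68. CD163, the haemoglobin scavenger receptor of tissue macrophages, was 7.18, 7.28, 7.65 and 7.73 in Mix, 6.79, 7.11, 7.26 and 6.69 in OSe, and 7.33, 7.35, 7.19, 7.16 and 6.56 in ISe. Mix animals 3 and 4 were the highest calves and ISe animal 5 the lowest, with overlap between all groups.

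The slope on CSF1R was -0.06 ± 0.29 (SE, limma adjusted p 0.975) for CD68 and 0.10 ± 0.21 (adjusted p 0.933) for CD163. Neither sign was stable. That of CD68 turned without OSe animal 1 (0.18) or OSe animal 4 (0.03), and that of CD163 turned without OSe animal 4 (-0.05) or ISe animal 5 (-0.01) and with the animal number as a replicate block (-0.12). CD68 and CD163 correlated with each other at 0.559. SPI1, which switches on much of the macrophage programme, had an r of 0.123 with CSF1R.

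TLR2, the receptor for bacterial lipoproteins, was 6.19, 6.46, 6.11 and 6.29 in Mix, 6.23, 6.16, 6.19 and 6.0 in OSe, and 6.19, 6.06, 5.98, 6.13 and 6.08 in ISe. Its calves lay close together at the low end of the table, and the groups overlapped. TREM2, a lipid receptor on phagocytes, was 7.20, 6.90, 6.82 and 6.85 in Mix, 6.46, 7.09, 6.82 and 6.95 in OSe, and 6.64, 7.05, 7.0, 6.84 and 6.80 in ISe. OSe animal 1, among the highest in CSF1R, was the lowest in TREM2, and the groups overlapped. TLR2 and TLR4 correlated with each other at 0.06.

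LYZ, the lysozyme that cleaves bacterial cell walls, varied more than any other member, and only 0.403% of all probe sets had a larger SD. LYZ was 7.85, 8.91, 8.73 and 8.46 in Mix, 9.44, 9.47, 10.67 and 7.72 in OSe, and 8.52, 9.44, 8.95, 9.83 and 8.25 in ISe. Both the highest and the lowest value belonged to OSe calves, animals 3 and 4, so OSe spanned both other groups. Mix animal 1, among the 3 highest calves in CSF1R, was second lowest in LYZ.

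LYZ followed the mean of the other members at 0.59 and CSF1R at 0.368 (permutation p 0.22, rho 0.313), and r with CSF1R was 0.05 without OSe animal 4 and ISe animal 1. Its slope on CSF1R was 1.04 ± 0.48 (SE, limma adjusted p 0.610), and 0.38 without OSe animal 4. Within groups LYZ correlated with CSF1R at 0.529, beside a median of 0.57 over the members. Its closest members over the 13 calves were CD86 (r = 0.765, rho 0.802), MSR1 (0.706) and CTSS (0.682). Within groups they were CD86 (0.895), TYROBP (0.801) and MSR1 (0.765). With LYZ in place of CSF1R as the yardstick, a choice made after its values were seen, limma called 0 of 26772 probe sets, and 11 of 31 members had an unadjusted p under 0.05, where 6.65% of all probe sets did. The slope of CD86 on LYZ was 0.26 ± 0.05 (SE, limma adjusted p 0.454).

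Lysozyme is a family in cattle, with near copies expressed in the stomach, and the specificity of the LYZ probe set was not tested. The probe sets named LYZ2 and LYZ3 had means of 3.35 and 3.72, below the 25th percentile of 6.26, so their correlations with LYZ (0.114 and 0.0006) come from values at the low end of the table. LYZ3 lies 1 protein-coding gene away from LYZ in the RefSeq table (ARS-UCD2.0). CX3CR1 also varied widely, with 1.57% of probe sets above its SD. It was 8.32, 7.25, 7.83 and 6.90 in Mix, 8.79, 8.67, 8.18 and 7.61 in OSe, and 7.24, 8.37, 8.63, 7.69 and 8.19 in ISe. Mix animal 4 was the lowest and OSe animal 1 the highest, and the groups overlapped. CX3CR1 correlated at 0.770 with CYBB and at 0.669 with CCR2, the chemokine receptor of inflammatory monocytes.

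**Figure D4:**
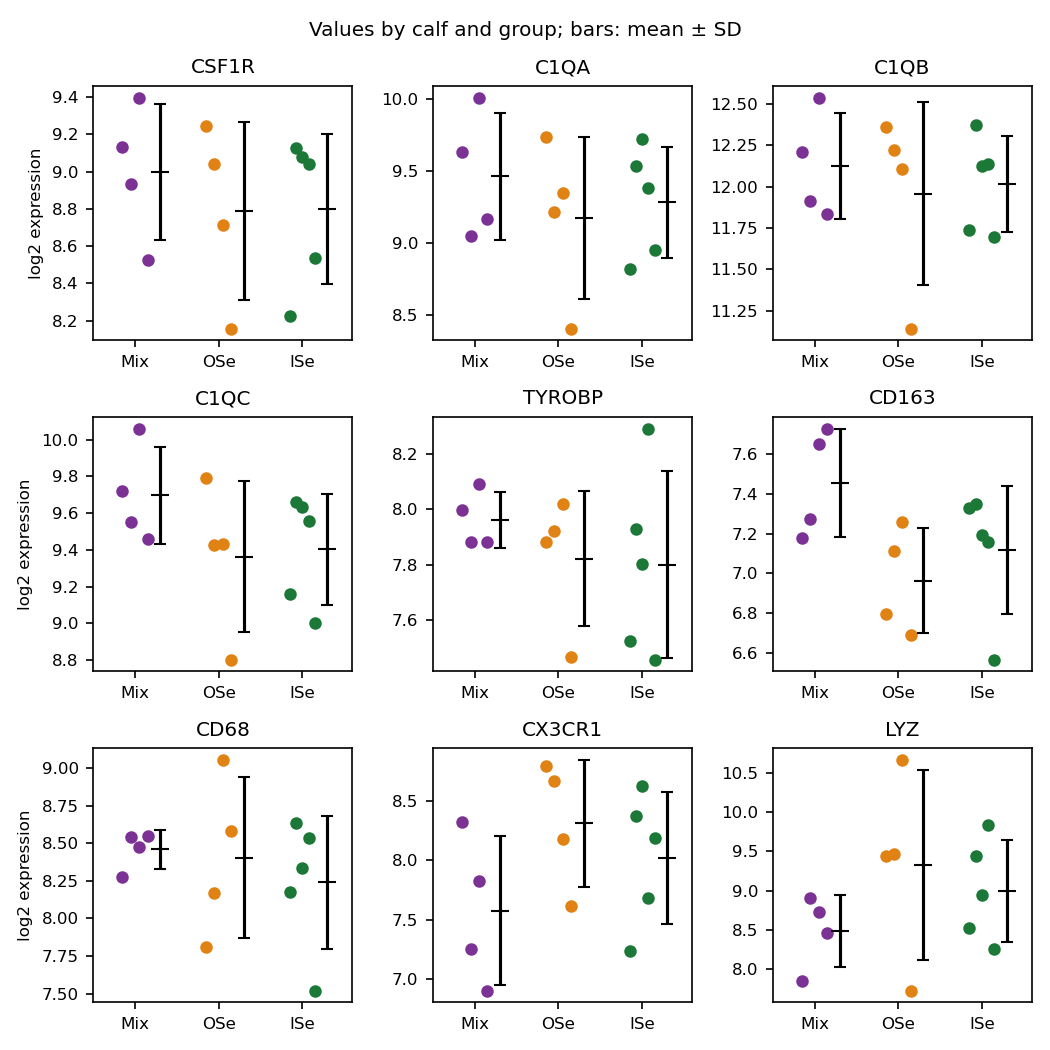
Log2 values of 9 genes by calf (points) in Mix, OSe and ISe, with the mean ± SD of each group as bars, each panel on its own scale. The groups overlap in all 9 panels, and OSe animal 4 is the lowest point in CSF1R, C1QA, C1QB, C1QC and LYZ.

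The form of selenium was compared next, with 1 limma model over the 13 arrays and adjustment over 26773 probe sets. The 3 comparisons share their groups, so they are not independent of each other. Many members vary together over the same calves, so counts of members higher or lower are not counts of separate results. Shares of all probe sets by direction are not given here. None of the 32 genes differed among Mix, OSe and ISe by the moderated F test, where the background was 0% of probe sets, and the lowest adjusted p of a member was 0.954. At an unadjusted p under 0.05 the F test gave 2 members, CCR2 (p 0.0227) and TLR4 (p 0.0482), with 4.50% of all probe sets below it. The members' mean deviation was 0.01 ± 0.16 in Mix (SD, n = 4), 0.05 ± 0.28 in OSe (n = 4) and -0.05 ± 0.19 in ISe (n = 5), differences smaller than the spread between calves.

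For OSe minus ISe, 21 members were higher and 11 lower in OSe, with a median difference of 0.10, beside 0.02 over all probe sets. None passed the adjusted threshold (background 0%, lowest adjusted p of a member 0.9999), and in none did the groups fail to overlap (0.743% of probe sets). At an unadjusted p under 0.05 there were 2 members, where 2.62% of probe sets were below it. TLR4, the lipopolysaccharide receptor, was 8.15, 8.32, 8.10 and 8.17 in OSe, and 8.15, 7.87, 7.60, 7.96 and 7.89 in ISe. ISe animal 1 fell within the OSe range and the other ISe calves lay below it. The difference was 0.29 ± 0.11 (SE, limma unadjusted p 0.0199). CCR2 differed by 0.34 ± 0.14 (limma unadjusted p 0.0264) and CYBB by 0.43 ± 0.26 (p 0.124). Without OSe animal 4, a calf singled out for its low values in these genes, the CYBB difference was 0.71 ± 0.22 (limma unadjusted p 0.00716, adjusted p 1).

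For Mix minus ISe, 27 members were higher and 5 lower in Mix, with a median of 0.08, beside 0.005 over all probe sets. Without Mix animal 3 the median of the members was 0.003. None passed the adjusted threshold (background 0%, lowest adjusted p 0.967), and in none were the groups apart (1.02% of probe sets). MARCO was the only member at an unadjusted p under 0.05, where 3.72% of probe sets were below it. No member was below it with quantile normalization, with arrays centred on their medians, or without Mix animal 4 or ISe animal 5. There were 2 in the unmoderated fit and 2 without Mix animal 3. Shares of all probe sets under these alternatives are not given here. The MARCO probe set lay at the low end of the table. MARCO, a scavenger receptor that binds bacteria, was 6.46, 6.24, 6.20 and 6.4 in Mix, and 5.74, 6.26, 6.10, 6.09 and 6.03 in ISe. ISe animal 2 lay among the Mix calves, and the difference was 0.28 ± 0.12 (SE, limma unadjusted p 0.034). It was 0.17 ± 0.08 for TLR2 (p 0.0589) and 0.34 ± 0.18 for CD163 (p 0.0774). That of TLR2 was 0.11 without Mix animal 2, and that of CD163 was 0.20 without ISe animal 5. With the replicate block it was 0.20 by construction, since only ISe has an animal 5 and its block takes up that calf.

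For Mix minus OSe, 19 members were higher and 13 lower in Mix, with a median of 0.03, beside -0.02 over all probe sets. None passed the adjusted threshold (background 0%, lowest adjusted p 0.581). The groups stood apart in 1 member, where they did so in 4.24% of probe sets, and 2 members had an unadjusted p under 0.05, where 8.53% did. CCR2 was 6.06, 5.98, 6.06 and 6.02 in Mix, and 6.68, 6.24, 6.60 and 6.35 in OSe. All Mix calves lay below all OSe calves, with a difference of -0.44 ± 0.15 (SE, limma unadjusted p 0.0098), in a probe set at the low end of the table.

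CD163 averaged 7.46 ± 0.27 in Mix and 6.96 ± 0.27 in OSe (SD, n = 4 each), a difference of 0.49 ± 0.19 (SE, limma unadjusted p 0.02), with Mix animals 1 and 2 close to OSe animals 2 and 3. TLR4 differed by -0.24 ± 0.12 (p 0.0556). LYZ and CX3CR1 had the largest differences of the members in size, -0.84 ± 0.51 (limma unadjusted p 0.120) and -0.74 ± 0.36 (p 0.058), each within a wide spread of calves. LYZ averaged 8.49 ± 0.46 in Mix, 9.33 ± 1.21 in OSe and 9.0 ± 0.65 in ISe. CX3CR1 averaged 7.58 ± 0.63 in Mix, 8.31 ± 0.54 in OSe and 8.02 ± 0.56 in ISe.

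**Figure D5:**
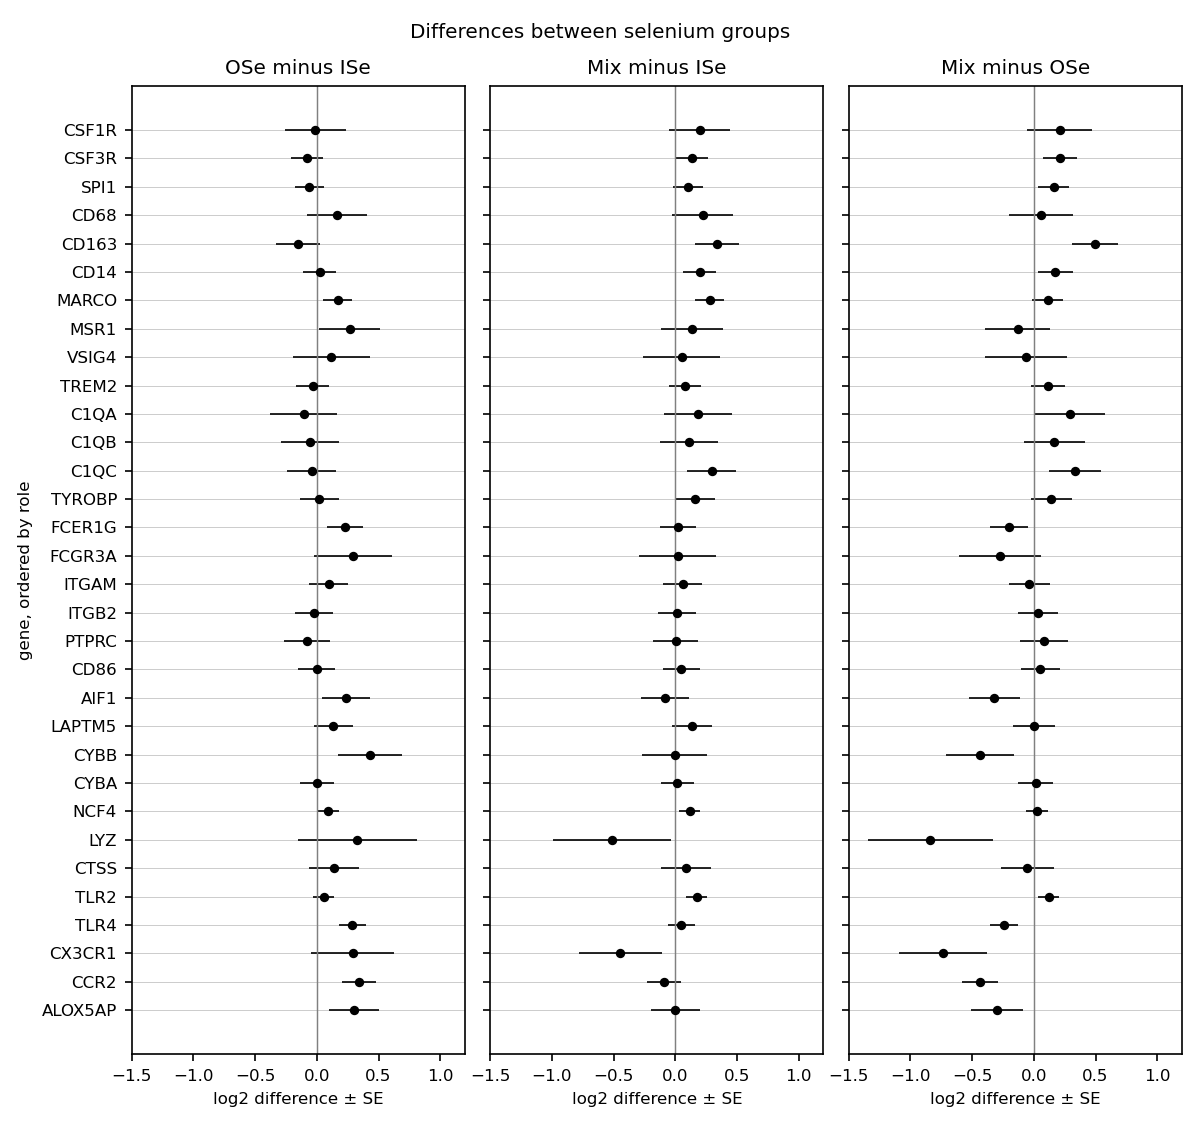
Log2 difference ± SE from limma for each of 32 genes in OSe minus ISe, Mix minus ISe and Mix minus OSe, with 0 marked by a line. Most intervals of 1 SE cross or lie near 0, and the widest belong to LYZ, at 0.33, -0.51 and -0.84.

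A single calf, OSe animal 4, moved these values. It was singled out because it was the lowest calf in many of these same genes. Leaving it out therefore raises the OSe means of those genes, and the p-values given without it are descriptive only. Without it the median of Mix minus OSe was -0.09 and that of OSe minus ISe 0.17, beside -0.02 and 0.03 over all probe sets. Members at an unadjusted p under 0.05 then numbered 6 for Mix minus OSe (7.67% of probe sets) and 7 for OSe minus ISe (3.38%), and 0 passed the adjustment in either. AIF1 (IBA1), an actin-bundling protein of macrophages and microglia, gave the smallest unadjusted p in both. Its difference was then -0.58 ± 0.13 for Mix minus OSe (SE, limma unadjusted p 0.000651, adjusted p 0.635) and 0.49 ± 0.12 for OSe minus ISe (p 0.00153, adjusted p 1). With all calves it was -0.32 ± 0.21 and 0.24 ± 0.20. LYZ without OSe animal 4 differed by -1.37 ± 0.40 for Mix minus OSe (limma unadjusted p 0.00483, adjusted p 0.635) and by 0.86 ± 0.38 for OSe minus ISe (p 0.0438, adjusted p 1). CX3CR1 differed by -0.97 ± 0.36 for Mix minus OSe (limma unadjusted p 0.0187, adjusted p 0.635). AIF1 was 8.83, 8.39, 8.61 and 8.22 in Mix, 8.95, 9.21, 9.12 and 8.06 in OSe, and 8.54, 8.60, 8.61, 8.69 and 8.55 in ISe, so that OSe held both the 3 highest calves and the lowest.

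Genes outside the list that were most like CSF1R were taken by their within-group correlation, among 14846 genes with a probe set mean above the 25th percentile. The first was CTTNBP2, a cortactin-binding protein (0.923), followed by the sialic acid receptor SIGLEC11 (0.918), MS4A7, a membrane protein of macrophages (0.915), and LOC518134 (0.914). MILR1, an inhibitory receptor of mast cells and other myeloid cells (0.901), LPO, lactoperoxidase (0.900), EPB41L4A (0.888) and TLR6, the partner of TLR2 (0.885), came next. Of the members, C1QC (0.925) stood above all of these, and C1QB (0.917) and C1QA (0.905) stood among them. None of the 8 passed in limma, with adjusted p of 0.0746 for LOC518134 and MILR1, 0.109 for MS4A7 and 0.351 for CTTNBP2.

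In a list of 45 other myeloid genes, 11 had a positive and 1 a negative slope on CSF1R at an unadjusted p under 0.05, where all probe sets gave 4.10% positive and 4.07% negative, and 0 passed the adjustment. C3AR1, the receptor for the complement fragment C3a, had a slope of 0.88 ± 0.18 (SE, limma adjusted p 0.253), and CLEC7A (dectin-1), which binds fungal glucans, 0.92 ± 0.22 (adjusted p 0.330). Between the diets, the smallest unadjusted p among these genes were those of the kinase FGR (0.27 ± 0.09, p 0.00929) and the nucleotide receptor P2RY13 (0.40 ± 0.14, p 0.0109) in OSe minus ISe. In Mix minus OSe it was that of the transcription factor IRF8 (0.52 ± 0.16, p 0.00756, limma), and in Mix minus ISe that of CSF2RB, the shared receptor chain for CSF2, IL3 and IL5 (0.33 ± 0.12, p 0.0144). Their limma adjusted p ran from 0.581 to 1.

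Of 18 genes that signal to macrophages, C3 and CD200 had a positive slope and CCL2 and CCL8 a negative one at an unadjusted p under 0.05. Over all probe sets 4.10% were positive and 4.07% negative. CCL2, the ligand of CCR2, had the steepest, -1.77 ± 0.35 (SE, limma unadjusted p 0.000248, adjusted p 0.237), and CCL8 had -1.07 ± 0.28 (adjusted p 0.399). CCL2 was 9.38, 9.19, 7.88 and 9.81 in Mix, 8.21, 9.43, 8.72 and 9.50 in OSe, and 10.42, 7.99, 8.16, 7.93 and 9.30 in ISe. Mix animal 3, highest in CSF1R, was the lowest, and ISe animal 1, second lowest in CSF1R, was the highest.

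Markers of other cells moved with the macrophage genes to different degrees, and their part in the pattern was not tested. The counts of slopes given here stand beside 4.10% positive and 4.07% negative at an unadjusted p under 0.05 over all probe sets. The mean of 24 genes shared by all leukocytes correlated with the mean of the members at 0.850, with 9 of 24 positive slopes on CSF1R at an unadjusted p under 0.05. That mean ran from -0.24 to 0.20 in Mix, from -0.37 to 0.19 in OSe and from -0.21 to 0.11 in ISe. The mean of 27 lymphocyte genes correlated at 0.730, with 4 positive slopes (NKG7, CD3D, CD3E and CD8B), and ran from -0.12 to 0.22 in Mix, from -0.24 to 0.07 in OSe and from -0.14 to 0.06 in ISe. For 17 granulocyte genes the correlation was 0.03, with 1 positive slope, that of LTF, a share near that of all probe sets.

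Among resident testis cells, the mean of 10 Leydig cell genes correlated with the members' mean at -0.325 and with CSF1R at -0.575. Of these genes, 2 had a negative slope at an unadjusted p under 0.05. CYP17A1, which makes androgen precursors, had -1.17 ± 0.34 (SE, limma adjusted p 0.464), and CYP11A1, which cleaves cholesterol, -0.92 ± 0.33 (adjusted p 0.522). The Leydig mean ran from -0.24 to 0.24 in Mix, from -0.30 to 0.38 in OSe and from -0.23 to 0.03 in ISe. The mean of 12 erythroid genes correlated with the members' mean at 0.349 and with CSF1R at 0.467, and ran from -0.04 to 0.08 in Mix, from -0.22 to 0.34 in OSe and from -0.19 to 0.41 in ISe. The endothelial list had 1 positive slope of 17, that of PLVAP, near the share of all probe sets, and the Sertoli, germ cell, peritubular, mast cell and erythroid lists had 0. No gene of any of these lists passed the adjustment.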

How the data were processed

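Testis RNA of 13 calves was hybridised to 1 Affymetrix array each. The table deposited by the authors holds 1 log2 value per probe set and array. GCOS 1.2 and Partek 6.4 are named in the submitters' processing notes. How background and scale were set is not given in the sources used here, and centring is unknown. That the unit is log2 was inferred from a range of 2.07 to 14.6. Scanner files were not used, so signal over background was not computed, and precision rests on the number of calves.

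Genes were named from the platform annotation, where 18550 probe sets had 1 symbol, 595 several and 7628 none. Of the 32 genes, 30 matched the RefSeq table (ARS-UCD2.0) by gene identifier. Members, lists and tests were chosen with earlier results of these data known.

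All 13 arrays entered 1 model in limma 3.58.1 (R 4.3.3) with a mean per group and empirical Bayes moderation. Tests were two-sided, with Benjamini-Hochberg adjustment over all probe sets and a threshold of 0.05. The slope test added CSF1R as a covariate. Permutation p used 100000 resamples. On simulated data with planted changes and independent noise per probe set, only the return of the planted estimates was required. Noise shared between genes was not simulated. Named genes were CSF1R, CD163, CD68, the C1q chains, TYROBP and LYZ, the 3 members with the smallest p in each contrast, the 3 members least correlated with the others, the 8 outside genes most like CSF1R, and up to 4 genes of each other list. CTSS, CYBB, CX3CR1, AIF1 and the other members with values were added after these were seen. Alternatives were other scalings, filters and covariates, an unmoderated fit, a replicate block and leaving out each calf. Same-numbered animals of different groups had correlated deviations between -0.151 and 0.101, so the numbers were not taken to pair calves.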

Additional observations from a re-analysis of the deposited data

Results flagged for a closer look

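Within each group of 4 or 5 calves, the highest and the lowest value of each gene and of the members' mean were compared with the nearest other calf. Of 99 such checks 6 found a calf far from the rest, where chance gives about 1 in 20. OSe animal 4 was far below the other OSe calves in CTSS (10.98, nearest calf 11.87), in CYBB (8.67, nearest 9.67) and in the mean deviation of the members (-0.36, nearest 0.15). ISe animal 5 was low in CD163 (6.56, nearest 7.16), and ISe animal 1 was low in ITGB2 (8.22, nearest 8.57). Mix animal 3 was high in CD14 (9.12, nearest 8.87).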

How the results depend on the processing

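No member passed the adjusted threshold in any comparison of diets under the scalings, filters, fits and left-out calves tried. For the slope on CSF1R, 3 members passed without group means, 3 among probe sets above the 25th percentile and 3 among probe sets with 1 symbol, each time C1QA, C1QB and C1QC. The filters test fewer probe sets, and the cause in the fit without group means was not tested. The count was 0 under the other alternatives, TYROBP or CD163 as the covariate included. With CD163 as the covariate, 4 members had an unadjusted p under 0.05 (3.41% of all probe sets), against 15 with CSF1R (8.17%). The replicate block left every adjusted count at 0 and gave medians of 0.04 for OSe minus ISe, 0.05 for Mix minus ISe and 0.03 for Mix minus OSe. It turned the slope of CD163 to -0.12. Only ISe has an animal 5, so in the comparisons with ISe the block repeats the differences found without that calf. Leaving out single calves gave slopes from -0.052 to 0.24 for CD163 and from -0.21 to 0.18 for CD68.

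The median pairwise correlation ran from 0.295 to 0.361 with single calves left out. It was 0.223 without OSe animal 4 and ISe animal 1 together, an alternative chosen after seeing the data. With single calves left out, the median difference ran from 0.03 to 0.17 for OSe minus ISe, from 0.003 to 0.16 for Mix minus ISe and from -0.09 to 0.09 for Mix minus OSe, whose sign turned without OSe animal 4, Mix animal 1 or Mix animal 3. Members at an unadjusted p under 0.05 numbered from 0 (without OSe animal 1) to 5 in the F test (without OSe animal 4, 4.34% of all probe sets). For Mix minus OSe they ran from 1 (without Mix animal 3 or 4) to 6 (without OSe animal 4, 7.67%), with 5 without Mix animal 1 (9.49%). For OSe minus ISe they ran from 1 (without OSe animal 1, among others) to 7 (without OSe animal 4, 3.38%). The mean over all probe sets of a gene changed nothing, since each member had 1. None of the 26 slopes of named genes outside the list turned over the 20 alternatives that kept CSF1R as the covariate. These genes were picked in the same data by their correlation with CSF1R or the p of their slope. A stable sign was thus largely given by the choice and is no separate evidence. LOC518134 passed in 4 of these alternatives and MILR1 in 2.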
